A study of Mus musculus with 4 samples.

Results

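Endothelial cells (ECs) line every blood vessel and hold the balance between clotting and clot removal on their surface. This account follows 9 genes by which ECs set that balance, taken by their symbols from the 24063 gene symbols of the tables, in ECs isolated from mouse lungs after pneumonectomy (PNX, removal of the left lung) and from sham-operated lungs. The genes were Vwf, F8 and F3 on the side of clotting, Thbd, Procr and Tfpi on the side of anticoagulation, and Plat, Plau and Plaur in fibrinolysis, the breakdown of the fibrin clot. All 9 symbols were found, and all 9 passed the filter on low counts.

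The study isolated CD31-positive cells with magnetic beads from lungs of C57BL6 mice (C57Bl6J in the design text), 8 weeks old and labelled male, 7 days after surgery. Each group had 2 libraries, and every library was made from the pooled cells of 2 mice. The PNX group had thoracotomy and removal of the left lung, so its cells came from the lobes that remained. The sham group had thoracotomy alone, and the methods describe the same anaesthesia, ventilation and analgesic for the surgery of both. No transgene or allele is named for these mice, and the cells were selected by CD31, with a flow cytometry check for VE-cadherin and for lack of CD45. The methods say that isolated ECs were put in culture for later experiments. Whether this was done before RNA was extracted is not stated. In all 4 libraries the 44 chromosome Y symbols of the tables had 0 counts while Xist had between 29890 and 36875, which goes against the labelled sex in both groups alike.

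Clotting begins when tissue factor, the product of F3, meets plasma factor VII, and it ends in thrombin, which cuts fibrinogen to fibrin. Von Willebrand factor is stored in the Weibel-Palade bodies of ECs, catches platelets at sites of damage and carries factor VIII in plasma, and ECs are a main source of factor VIII itself. Thrombomodulin on the EC surface turns thrombin into an activator of protein C, which the endothelial protein C receptor presents, and tissue factor pathway inhibitor blocks the first step of clotting. Tissue-type and urokinase-type plasminogen activators turn plasminogen into plasmin, which dissolves fibrin, and the urokinase receptor holds urokinase at the cell surface. In the lung the capillary bed is known for strong expression of thrombomodulin.

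The counts on 1 transcript per symbol summed to between 41367438 and 50952879 per library, so that 3 counts, taken as the floor, stood for 0.0589 to 0.0725 CPM (counts scaled to a common library total), a limit for counting error only. Libraries of the same group differed by a mean chi-square per gene of 1.76 in sham and 1.53 in post-PNX ECs. Counting error alone would give about 1, and the value was 133 between the first sham and the first PNX library. Pecam1, which encodes CD31, had 90946 ± 240 normalized counts (SD, n = 2) in sham, and 90400 ± 294 (SD, n = 2) after PNX. Of 12 endothelial marker genes 10 were lower and 1 was higher after PNX by the test used below, and their summed counts lay between 506437 and 511443 in sham and between 430819 and 432657 in post-PNX libraries. RNA of other lung cells was present in all libraries, as in Ptprc, which encodes CD45, at 11566 ± 44.1 normalized counts in sham and 11543 ± 171 after PNX (SD, n = 2). Sftpc, the surfactant protein C of alveolar type 2 cells, was at 171015 and 111027 normalized counts on average, above Pecam1 in both groups. Changes of the 9 genes are therefore also given with the libraries scaled to the 12 endothelial markers. Those of lists and of several other genes are given so too where that scaling changes a call or a direction. It adds 0.24 to the median log2 fold change of all genes. It takes the summed markers as equal in all libraries, which was not tested. Without it the markers ranged from -0.53 (Flt1) to 0.11 (Emcn), and with it 5 were lower and 4 higher. Pecam1 went from -0.0087 to 0.23 (edgeR adjusted p = 8.53e-15). Signs and calls that change under this scaling can thus depend on the markers chosen.

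Compared per length, with the deposited FPKM values (fragments counted per length of transcript and per library size), Thbd stood far above the other genes. Its sham level was 442 ± 1.70 FPKM (SD, n = 2) and its post-PNX level 305 ± 0.308 (SD, n = 2). Vwf followed with 82.6 ± 1.43 in sham and 79.1 ± 0.607 after PNX, and Plaur with 62.7 ± 0.247 and 55.7 ± 0.967. Plat had 25.6 ± 0.312 FPKM in sham and 37.2 ± 0.0870 after PNX, and Tfpi had 14.5 ± 0.0996 and 14.8 ± 0.237. The lower levels were those of Plau with 9.46 ± 0.364 and 12.7 ± 0.0570, F3 with 8.57 ± 0.0930 and 7.78 ± 0.187, Procr with 2.99 ± 0.281 and 5.76 ± 0.414, and F8 with 0.610 ± 0.0300 and 0.579 ± 0.0168 (SD, n = 2 in each group). The order of the 9 genes was the same in both groups, and no neighbours in it overlapped between their libraries within a group. The protein C receptor was thus among the scarcest of these transcripts and thrombomodulin, with which it acts, the most abundant.

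**Figure D1:**
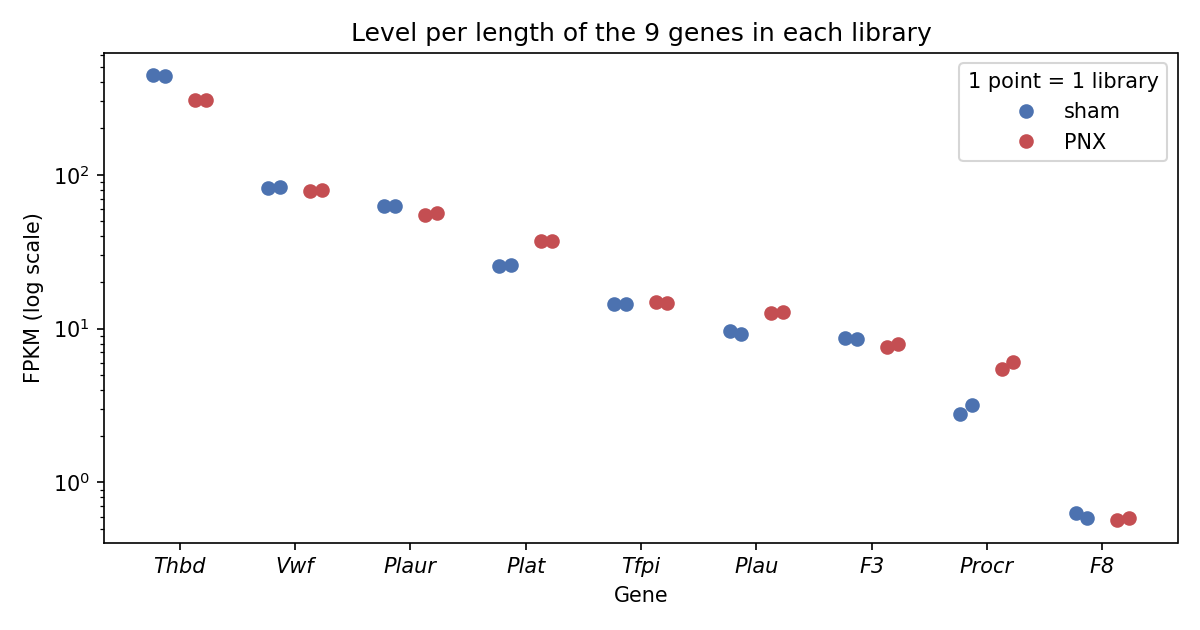
FPKM of the 9 genes (log axis) in each library, with sham in blue and PNX in red and 1 point per library. Thbd lies at 304 FPKM or more in every library, F8 at 0.631 or less, and the order from Thbd to F8 is the same in both groups.

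In post-PNX ECs 3 of the 9 genes were higher (Procr, Plat and Plau) and 4 were lower (Thbd, Plaur, F3 and Vwf) when called by edgeR's quasi-likelihood test with a Benjamini-Hochberg adjusted p under 0.01, while F8 and Tfpi did not pass. Over all 16208 genes tested, 29.3% were higher and 27.8% lower by the same rule (57.1% in either direction), so that passing the test is common here and the size of the change says more. The post-PNX and sham libraries did not overlap in 7 of the 9 genes, against 81.2% of all genes. With a change beyond 2-fold asked for as well, 0 of the 9 genes passed, against 7.56% of all genes. DESeq2's Wald test also gave 0 beyond 2-fold, and 7 of the 9 had an unadjusted p under 0.05 in the edgeR test. The median log2 fold change of the 9 genes was -0.07, beside 0.00 for all genes tested. When the libraries were scaled to the endothelial markers, 5 genes were higher (Procr, Plat, Plau, Tfpi and Vwf) and 1, Thbd, was lower, beside 56.5% and 9.56% of all genes, and Procr was higher beyond 2-fold, beside 7.93% of all genes.

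**Figure D2:**
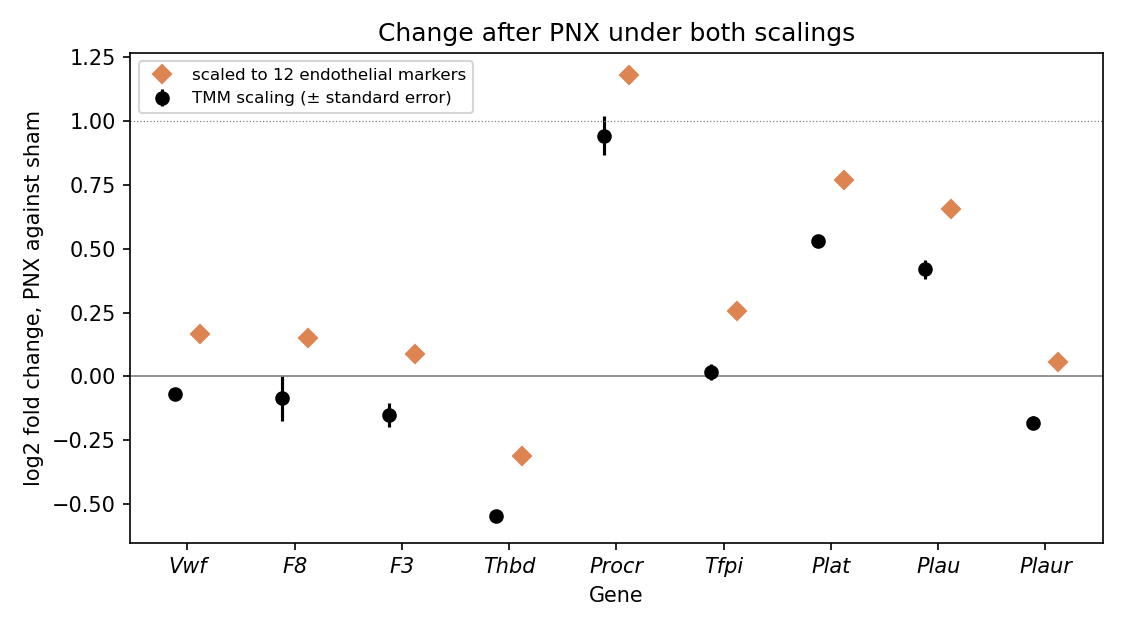
Log2 fold change of post-PNX against sham ECs for the 9 genes, with TMM scaling (black, bars are the standard error) and with the libraries scaled to 12 endothelial markers (orange). Thbd is below 0 and Procr, Plat and Plau are above 0 under both, while Vwf, F8, F3 and Plaur change sign between the scalings.

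Sequence before an annotated start of transcription was at hand for 5 of the genes, in 6 windows, from RefSeq on GRCm38.p6, the assembly also named mm10. The windows of Procr, F3 and Plaur are shown because Procr had the largest fold change of the 9 genes and because these 3 hold the letters TGANTCA, the core to which AP-1 factors are known to bind. Each window covers the 250 bases before the start that the RefSeq promoter table gives, 5′ to 3′ on the plus strand. For F3 that start, 121723537, is also the start in GENCODE M21. For Plaur it is 24462483, beside 24462484 in GENCODE M21, while the RefSeq span of the gene begins further upstream at 24460937, so that the window lies within that span. For Procr it is 155751217, which lies past the start of 155751117 in GENCODE M21, so that only the first 150 bases of its window are printed, and both of its marked matches lie in them. Capitals mark this AP-1 core and the letters CACCC, known from sites of KLF factors, on either strand.
Procr, chr2:155750967-155751116: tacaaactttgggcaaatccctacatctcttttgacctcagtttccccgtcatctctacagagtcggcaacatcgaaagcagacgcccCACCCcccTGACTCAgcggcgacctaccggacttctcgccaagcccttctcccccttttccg
F3, chr3:121723287-121723536: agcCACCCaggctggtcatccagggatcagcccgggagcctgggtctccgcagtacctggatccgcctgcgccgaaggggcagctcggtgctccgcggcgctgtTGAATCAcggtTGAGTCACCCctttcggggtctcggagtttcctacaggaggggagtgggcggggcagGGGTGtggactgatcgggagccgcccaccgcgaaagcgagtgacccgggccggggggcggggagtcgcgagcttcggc
Plaur, chr7:24462233-24462482: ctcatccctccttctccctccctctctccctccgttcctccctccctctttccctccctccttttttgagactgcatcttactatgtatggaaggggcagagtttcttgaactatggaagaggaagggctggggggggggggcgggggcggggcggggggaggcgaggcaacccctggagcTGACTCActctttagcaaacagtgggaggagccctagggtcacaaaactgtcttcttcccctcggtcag
The AP-1 core was found 2 times in the window of F3, where 1 copy overlaps a KLF core, and 1 time each in those of Procr and Plaur. Of all 32851 windows of this length, 6.75% hold the AP-1 core on either strand and 52.0% hold the KLF core. The core of ETS sites, searched as the letters GGAA, was found in all 6 windows and in 93.4% of all windows. The KLF core was found 3 times in the window of F3, and 1 time in that of Procr and in each of 2 windows of Tfpi. A TATA box, searched as TATAAA, was found in 1 window of Tfpi and in 12.4% of all windows. The window of F8 and 1 of the 2 windows of Tfpi lie within the RefSeq spans of these genes. Their starts were not compared with GENCODE. Of the 3 genes with the AP-1 core, Procr rose, while F3 and Plaur fell under TMM scaling and were at 0.09 and 0.06 on the log2 scale when scaled to endothelial markers. A match is a description of the letters only.

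Among the genes of clotting, Vwf, F8 and F3 changed little. Vwf, on chromosome 6 from 125552948 to 125686679, had 53060 and 54347 normalized counts in sham libraries, and 50805 and 51489 in PNX libraries. Both PNX libraries lay below both sham libraries. The log2 fold change was -0.07 (standard error, SE, 0.017, edgeR quasi-likelihood adjusted p = 0.000221), so the level fell by 4.76%, and it became a log2 fold change of 0.17 (adjusted p = 1.03e-10, same edgeR test) under scaling to the endothelial markers. Without the second sham library the value was -0.05 (edgeR adjusted p = 0.0114). Fewer cells of a type and less RNA per cell cannot be told apart in such bulk libraries.

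F8, on chromosome X from 75170344 to 75382738, was the scarcest of the 9 genes per length, and had 349 and 325 normalized counts in sham and 311 and 325 in post-PNX libraries. The groups overlapped, and the log2 fold change was -0.09 (SE 0.086, edgeR quasi-likelihood adjusted p = 0.390), and it was 0.15 (edgeR adjusted p = 0.112) under scaling to the endothelial markers. Its 3 transcripts in the tables had nearly the same counts, from 382 to 385 in the first sham library. The gene overlaps Fundc2 on the opposite strand, and reads of both could be mixed if strand was not used in counting, which is not stated. Set against the carrier protein, the FPKM ratio of F8 to Vwf was 0.00773 and 0.00704 in sham and 0.00721 and 0.00743 in post-PNX libraries, which overlapped.

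F3, on chromosome 3 from 121723537 to 121735052, had 1193 and 1174 normalized counts in sham and 1048 and 1087 in post-PNX libraries, with the PNX libraries below the sham libraries. The log2 fold change was -0.15 (SE 0.048, edgeR quasi-likelihood adjusted p = 0.00510), so the level fell by 9.89%, and it turned to 0.09 (edgeR adjusted p = 0.101) under scaling to the endothelial markers. The call also did not hold in DESeq2's Wald test (adjusted p = 0.108). It was lost when the first sham, the second sham or the first PNX library was left out (edgeR adjusted p = 0.0400, 0.0131 and 0.0827). Alveolar epithelial cells are known to carry tissue factor, and the 5 alveolar epithelial markers were all lower after PNX, with summed counts between 273900 and 274839 in sham and between 181268 and 181549 in post-PNX libraries. Their part in the value of F3 was not tested.

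**Figure D3:**
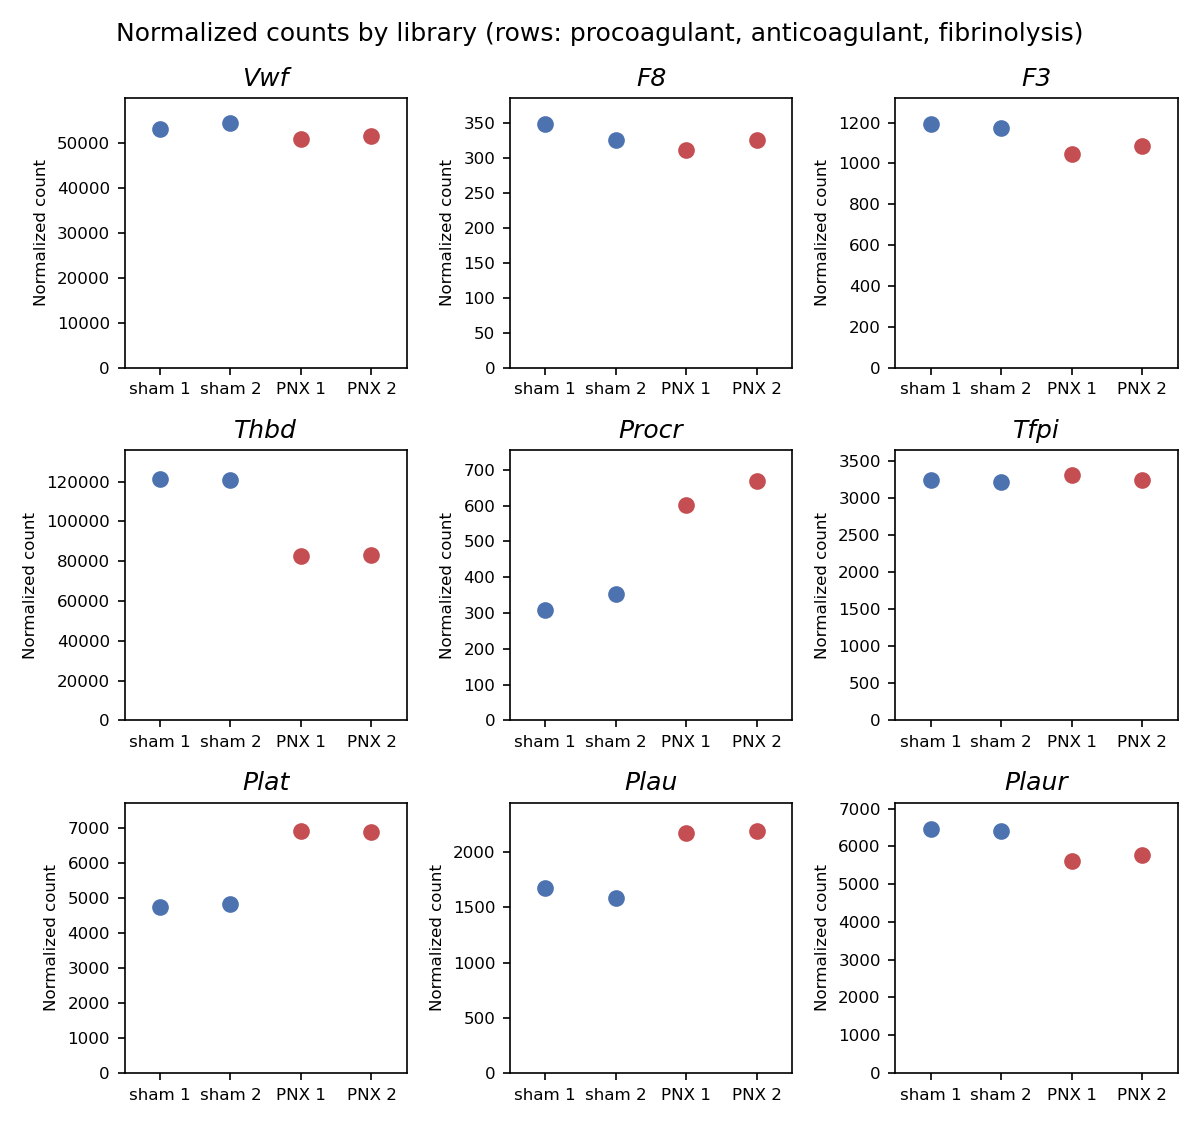
Normalized counts (TMM, linear axes from 0) of each gene in the 2 sham libraries (blue) and the 2 PNX libraries (red). Under this scaling Thbd falls and Procr, Plat and Plau rise by more than their spread, and the groups overlap in F8 and Tfpi. The shifts in Vwf, F3 and Plaur are small and change sign when scaled to endothelial markers, where of these only Vwf passes the test.

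The anticoagulant genes went in different directions. Thbd, which encodes thrombomodulin and lies on chromosome 2 from 148404471 to 148408188, had 121414 and 120694 normalized counts in sham and 82818 and 82907 in post-PNX libraries. The distance between the groups was many times that within them, with a log2 fold change of -0.55 (SE 0.015, edgeR quasi-likelihood adjusted p = 1.54e-39), so the level fell by 31.5%. Under scaling to the endothelial markers it was -0.31, and with any 1 library left out it lay between -0.55 and -0.54. Thbd was at a log2 fold change beyond the median of the 12 endothelial markers, -0.25. These markers ranged from -0.53 to 0.11, so Thbd lay close to the lowest of them, Flt1. The 4 markers of general capillary ECs, Gpihbp1, Plvap, Aplnr and Kit, were lower too, with summed counts between 98441 and 99188 in sham and between 67114 and 67594 in post-PNX libraries and a median log2 fold change of -0.55. Whether the share of such cells bears on Thbd was not tested.

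Procr, on chromosome 2 from 155751125 to 155755478, encodes the endothelial protein C receptor and had the largest fold change of the 9 genes. It rose from 309 and 353 normalized counts in sham to 601 and 667 in post-PNX libraries. Its spread within a group was the widest, with an SD of 0.14 on the log2 scale in sham and 0.11 after PNX, yet the groups lay far apart, with a log2 fold change of 0.94 (SE 0.076, edgeR quasi-likelihood adjusted p = 5.65e-17), or 1.92-fold. It was beyond 2-fold under scaling to the endothelial markers (log2 fold change 1.18) and without the second sham (1.03) or the first PNX library (1.02), and short of it without the first sham (0.84) or the second PNX library (0.87). Mesothelial cells are known to express this receptor, and all 5 mesothelial markers were higher after PNX, with summed counts between 9721 and 9884 in sham and between 21116 and 21489 in post-PNX libraries. That part was not tested. Within a library, where scaling plays no part, the FPKM ratio of Procr to Thbd was 0.00629 and 0.00722 in sham and 0.0180 and 0.0199 in post-PNX ECs.

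Tfpi, on chromosome 2 from 84432855 to 84476775, had 3244 and 3211 normalized counts in sham and 3302 and 3236 in post-PNX libraries, which overlapped. The log2 fold change was 0.02 (SE 0.031, edgeR quasi-likelihood adjusted p = 0.612) and 0.26 (edgeR adjusted p = 1.86e-08) under scaling to the endothelial markers. These counts are those of NM_001177319, the transcript with the most reads of 3. It shares 5 coding exons with the shorter transcript NM_011576 and ends in an exon of its own, from 84440140 to 84442925 on chromosome 2 in GENCODE M21, while the shorter transcript has 2 coding exons that the longer lacks, the last of them from 84432860 to 84433184. They encode proteins of 235 and 306 residues by the annotated coding length. The longer protein is the form known as TFPI alpha, with its additional Kunitz domain, and the shorter is TFPI beta, which is held at the cell surface by a lipid anchor.

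The transcript of the alpha form had 1518 and 1537 normalized counts in sham and 1769 and 1776 in post-PNX libraries, and the groups did not overlap. Tested in place of the other transcript, a choice made after its values were seen, its log2 fold change was 0.21 (SE 0.040, edgeR quasi-likelihood adjusted p = 5.20e-06), and 0.45 under scaling to the endothelial markers. Its counts were 0.468 and 0.479 of those of the beta transcript in sham, against 0.536 and 0.549 after PNX. Reads on the shared exons count for both transcripts, so the ends cannot be read apart in these tables, and the difference between the transcripts was not itself tested.

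**Figure D4:**
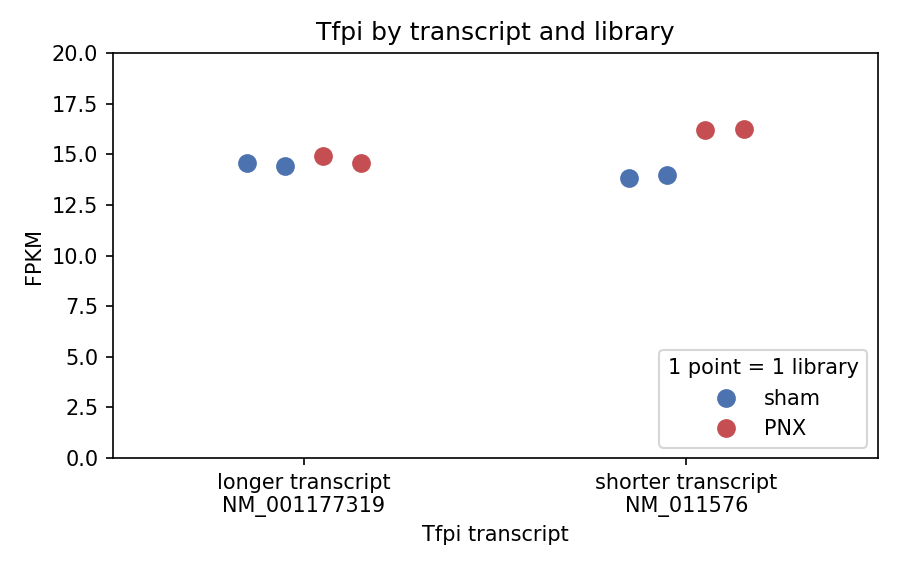
FPKM of the transcripts of Tfpi in each library, from 0, with sham in blue and PNX in red. The longer transcript (TFPI beta) lies between 14.4 and 14.9 in all libraries, while the shorter (TFPI alpha) is near 14 in sham and near 16.2 in PNX libraries.

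Both plasminogen activators were higher in post-PNX libraries, and the urokinase receptor was slightly lower under TMM scaling. Plat, which encodes tissue-type plasminogen activator and lies on chromosome 8 from 22757722 to 22782848, had 4739 and 4819 normalized counts in sham and 6899 and 6894 in post-PNX libraries. The PNX libraries were nearly equal and well above the sham libraries, at a log2 fold change of 0.53 (SE 0.025, edgeR quasi-likelihood adjusted p = 1.55e-27), or 1.44-fold, and 0.77 under scaling to the endothelial markers. Marker sums of mesothelial cells, given above, and of fibroblasts, given below, were higher after PNX too. Whether RNA of such cells bears on Plat was not tested.

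Plau, which encodes urokinase and lies on chromosome 14 from 20836662 to 20843388, had 1677 and 1587 normalized counts in sham and 2175 and 2194 in post-PNX libraries. All PNX values lay above the sham values, at a log2 fold change of 0.42 (SE 0.039, edgeR quasi-likelihood adjusted p = 1.05e-14), or 1.34-fold, and 0.66 under scaling to the endothelial markers. The FPKM ratio of Plat to Plau was 2.62 and 2.81 in sham and 2.94 and 2.91 in post-PNX libraries, so that tissue-type activator stayed the more abundant transcript per length.

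Plaur, on chromosome 7 from 24460937 to 24475970, had 6458 and 6419 normalized counts in sham and 5610 and 5764 in post-PNX libraries, without overlap. The log2 fold change was -0.18 (SE 0.025, edgeR quasi-likelihood adjusted p = 5.32e-09), so the level fell by 11.7%, and it turned to 0.06 (edgeR adjusted p = 0.0429) under scaling to the endothelial markers. The FPKM ratio of urokinase to its receptor does not depend on that scaling, and it was 0.155 and 0.147 in sham and 0.231 and 0.227 in post-PNX libraries. Fibroblasts and macrophages are known sources of urokinase. Of 6 fibroblast markers 5 were higher and Pdgfra was lower under TMM scaling (0.01 when scaled to endothelial markers), with summed counts between 58462 and 58927 in sham and between 220379 and 221782 in post-PNX libraries. All 6 macrophage markers were higher, with sums between 19888 and 20178 and between 46746 and 46951. Their part in the values of Plau and Plaur was not tested.

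Of 67 other genes of coagulation and fibrinolysis, in 5 lists, 53 passed the filter on low counts, of which 25 rose and 8 fell after PNX by edgeR's quasi-likelihood test. These are 47.2% and 15.1% of the genes tested, beside 29.3% and 27.8% of all genes. Beyond 2-fold 6 were higher, 11.3% of the 53 beside 5.9% of all genes, and 0 were lower (0 at an unadjusted p under 0.05, and 0 by DESeq2) beside 1.66% of all genes. The median log2 fold change was 0.16. Under scaling to the endothelial markers 35 were higher and 5 lower, which is 66% and 9.43% of the 53, beside 56.5% and 9.56% of all genes under that scaling.

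The list of clotting factors and fibrinogen held 3 of the 6 genes beyond 2-fold, and 7 of its 10 genes tested rose (8 when scaled to endothelial markers). These 7 include Vkorc1, Lman1 and Mcfd2, which are not clotting factors themselves but serve their processing and transport. F5, the cofactor of the prothrombin-cutting complex, went from 425 and 447 normalized counts in sham to 1337 and 1329 after PNX, a log2 fold change of 1.62 (SE 0.057, edgeR quasi-likelihood adjusted p = 3.53e-34). F10, the protease of the same complex, had a log2 fold change of 1.47, F13a1, the chain of factor XIII that cross-links fibrin, one of 1.48, and F7, the partner of tissue factor, one of 0.81. F5 is also known from megakaryocytes, and F10 and F13a1 from macrophages. Of 9 platelet and megakaryocyte markers 4 were higher (8 when scaled to endothelial markers) and none was at 0, with sums between 2920 and 3056 in sham and between 4285 and 4315 in post-PNX libraries. Their part, and that of the macrophage RNA described above, in the rise of these factors was not tested. The fibrinogen genes Fga, Fgb and Fgg, made by hepatocytes, had at most 10 counts in any library.

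The anticoagulant list had 8 genes tested, of which 2 rose and 1 fell, with a median log2 fold change of -0.09. When scaled to endothelial markers 4 were higher and 1 lower, with a median of 0.15. Tfpi2, a relative of Tfpi, rose with a log2 fold change of 0.76 from 172 and 148 normalized counts in sham to 250 and 299 after PNX. Hs3st1, the sulfotransferase that makes the antithrombin-binding site of heparan sulfate, fell from 4344 and 4137 to 2770 and 2841, a log2 fold change of -0.60 (SE 0.031, edgeR quasi-likelihood adjusted p = 9.44e-26, -0.36 when scaled to endothelial markers), and it was named after its value was seen. Pros1, the protein S cofactor of protein C, had a log2 fold change of 0.04 (edgeR adjusted p = 0.130), which was 0.27 (edgeR adjusted p = 2.46e-12) when scaled to endothelial markers.

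In the list of plasminogen activation and its inhibitors 8 of 11 genes tested rose (10 when scaled to endothelial markers), with a median log2 fold change of 0.42. Serpinb2, an inhibitor of urokinase, had the largest rise of the 5 lists, from 106 and 104 normalized counts to 1667 and 1647, a log2 fold change of 3.98 (SE 0.074, edgeR quasi-likelihood adjusted p = 4.39e-49). Serpine2, protease nexin 1, had a log2 fold change of 0.76. Anxa2 and S100a10, which together form a plasminogen receptor at the cell surface, had log2 fold changes of 0.60 and 0.63, and Eno1, a glycolytic enzyme that also binds plasminogen and has near-identical copies among which reads could be split, one of 0.61. Serpinb2 is known from macrophages and mesothelial cells, whose marker sums rose as given above. Their part was not tested.

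Of the 4 protease-activated receptors, through which thrombin and other proteases signal to cells, 3 rose and 1 fell. F2r (PAR1), the main thrombin receptor of ECs, had 10177 and 9959 normalized counts in sham and 12603 and 13075 after PNX, a log2 fold change of 0.35 (SE 0.022, edgeR quasi-likelihood adjusted p = 4.27e-22). F2rl3 (PAR4), known from mouse platelets, rose from 27.2 and 35.7 to 111 and 92.5 normalized counts, a log2 fold change of 1.71. F2rl1 (PAR2), named after its value was seen, fell with a log2 fold change of -0.47 (-0.24 when scaled to endothelial markers).

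Of the 20 genes for storage, release and clearance of von Willebrand factor, 5 rose and 6 fell, with a median log2 fold change of -0.03. When scaled to endothelial markers 10 were higher and 3 lower, with a median of 0.21. Selp, the P-selectin that shares the Weibel-Palade bodies with von Willebrand factor, rose from 848 and 880 normalized counts to 1923 and 1890, a log2 fold change of 1.14 (SE 0.045, edgeR quasi-likelihood adjusted p = 1.38e-31), and Cd63, a membrane protein of these granules and of other late endosomes, had one of 0.88. Selp is also carried by platelets and marks venous ECs, of whose 5 markers, Selp among them, 4 rose and Ephb4 fell under TMM scaling (0.08 when scaled to endothelial markers). The lower genes included some that act on the holding or the release of the granules, named after their values were seen. Release itself was not measured, and these values give no direction for it. Myrip, which ties the granules to actin, fell with a log2 fold change of -0.48, Unc13d, a priming factor, with -0.44, and Stxbp5 with -0.39, and under scaling to the endothelial markers these were -0.24, -0.21 and -0.15. Vamp8 (-0.28), Stx3 (-0.25) and Angpt2 (-0.29), an angiopoietin stored in the same granules, were at -0.04, -0.02 and -0.05 under that scaling and then did not pass.

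**Figure D5:**
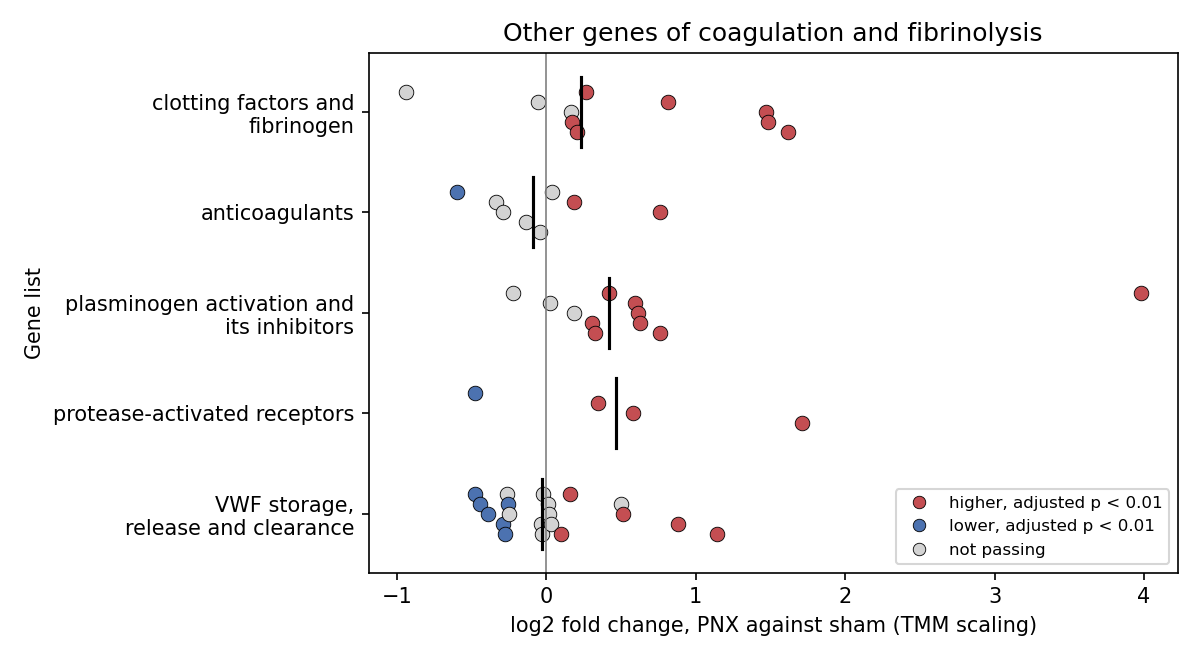
Log2 fold change of post-PNX against sham ECs (TMM scaling) for the 53 other genes tested, by list, 1 point per gene, with black bars at the list medians. Points are red where a gene is higher and blue where it is lower at an adjusted p under 0.01, and the point near 4 is Serpinb2. When scaled to endothelial markers the medians of the anticoagulants and of the genes for von Willebrand factor change sign.

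Of the other EC marker lists, 4 of the 5 arterial markers were lower and Gja4 was higher under TMM scaling (2 lower and 2 higher when scaled to endothelial markers), 3 of the 5 aerocyte markers were higher and 2 lower, and of 4 lymphatic markers tested 2 were higher and Lyve1 was lower with a log2 fold change of -1.14 (3 higher, and Lyve1 at -0.91, when scaled to endothelial markers). Of 5 neutrophil markers 4 were higher and Cxcr2 was lower under TMM scaling (0.02 when scaled to endothelial markers). The arterial median was -0.24 with TMM and -0.01 when scaled to endothelial markers.

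The genes whose pattern over the 4 libraries was nearest to that of Vwf were Bcl2l13, Saraf and Mcm3ap, with Euclidean distances of gene-centred log2 counts of 0.0051, 0.0062 and 0.0072. Those nearest to Thbd were Nfat5 (0.0090), Dock9 (0.011) and Zfp609 (0.011), and those nearest to Plat were Igfbp2 (0.0095), Acta2 (0.010) and Dnajc9 (0.011). With 4 libraries in 2 groups this measure mostly orders genes by fold change, and of 13402 genes compared 629 lay within 0.05 of Vwf, 102 of Thbd and 98 of Plat.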

How the data were processed

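RNA of CD31-selected lung ECs was sequenced by the authors as paired ends from stranded mRNA libraries and aligned to mm10, with STAR named in the submitters' processing notes. The counting program is not given in the sources used here. For each library the authors deposited whole-number counts, FPKM and TPM on 33068 RefSeq transcripts. Transcripts of a gene share reads in these tables, so for each symbol the transcript with the highest count sum was taken. The deposited FPKM values were used for levels between genes and for ratios, and the deposited TPM values were not used.

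Counts were tested in R 4.3.3 with edgeR 4.0.16 (filterByExpr, TMM, quasi-likelihood F test, no covariates), with Benjamini-Hochberg adjustment over 16208 genes. A gene rose or fell at an adjusted p under 0.01, and a log2 fold change beyond 1 was counted apart. The standard error is the log2 fold change divided by the square root of F. Normalized counts are scaled to the mean library size. The fit was tested on simulated data. Alternatives included DESeq2 1.42.0, other scalings, filters and each library left out. Positions are those of RefSeq on GRCm38.p6, and motifs were searched on both strands.

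All 9 genes were named, and of the other genes those of a written rule: 8 set genes, the 12 largest changes with at least 50 normalized counts, and leading markers of 12 cell type lists. Members and lists were chosen with earlier results of these data known. The p-values rest on the spread between 2 libraries in each group, each a pool of 2 mice, and edgeR shares that spread over genes. They do not measure the spread between single mice. Libraries of a group differed by not much more than counting error, so that small changes pass. How far this spread covers that between separate pools of mice cannot be told from these data. Adgre1, a further macrophage marker, was not analysed here. The values of 1 gene of the lists are not reported here.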

Additional observations from a re-analysis of the deposited data

How the results depend on the processing

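Scaling to 12 endothelial markers moved the results most. The numbers of the 9 genes higher and lower went to 5 and 1, with 1 higher beyond 2-fold, and those of the other pathway genes lower and higher beyond 2-fold to 5 and 10. The log2 fold changes of Vwf (0.17), F8 (0.15), F3 (0.087) and Plaur (0.057) changed sign, and Tfpi (0.26) passed. F3 did not pass in DESeq2's Wald test (-0.15, adjusted p = 0.108) or with counts summed over transcripts (-0.15, edgeR adjusted p = 0.0139), and the causes were not tested. The shorter transcript of Tfpi, added after the data were seen, gave 0.21. With each library left out in turn, F3 lay between -0.17 and -0.12, Vwf between -0.088 and -0.053, and Procr between 0.84 and 1.03. The number of the 9 genes lower lay between 2 and 4 (2 without the second sham library, which ended the calls of Vwf and F3), that higher beyond 2-fold between 0 and 1, and that of other pathway genes lower beyond 2-fold between 0 and 1. Thbd, Procr, Plat and Plau kept their direction under every alternative run. They passed in each alternative that tested for any change with all 4 libraries. Over all genes, scaling to the endothelial markers gave 9158 higher and 1550 lower, against 4745 and 4513, and 91 lower beyond 2-fold, and a mean of at least 50 counts gave 160, against 269. The correlation between same-numbered deviations was 0.030 over 16208 genes. Libraries of a group differed so little that this value cannot settle whether the replicate numbers pair them. The fit with the replicate block left 3 of the 9 genes higher and 4 lower. It changed the call of 0 of these 9 and 0 of the 53 other pathway genes, and of 183 of all 16208 genes. Depth limits F8 and Procr most, with the fewest counts of the 9 genes.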
